A study of Mus musculus with 9 samples.

Results

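Plasminogen activation and coagulation control were examined through 9 genes. These were the plasminogen activators Plat and Plau, the urokinase receptor Plaur, the protease inhibitors Serpine2 and Serpinb2, and the regulators of clotting F3, Thbd, Tfpi and Procr. All probes carrying any of these symbols were taken. This gave 9 of 30869 gene symbols and 16 of the 45281 gene probes on the Illumina MouseWG-6 v2.0 array. Probes were taken by symbol and not by value, but the genes were chosen with earlier results of these data known. Each gene is described by its brightest probe, and 8 of the 9 genes had a probe that passed the detection filter.

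Plasmin dissolves fibrin and cleaves matrix proteins, and it is made from plasminogen by the tissue-type and urokinase-type activators, which serpins inhibit. Tissue factor starts clotting, while tissue factor pathway inhibitor and the thrombomodulin and protein C receptor system restrain it. In injured liver these proteases act on deposited fibrin and on the scar matrix made by activated hepatic stellate cells (aHSCs), the liver pericytes that turn into myofibroblasts.

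The samples were aHSCs of C57/Bl6 mice carrying WT1GFP/+, in which green fluorescent protein (GFP) reports the WT1 locus, so every group carried the reporter allele. WT1-high (GFP high) and WT1-intermediate (GFP low) cells were sorted straight from livers of adult mice chronically injured by injected carbon tetrachloride, whereas WT1-negative (GFP negative) cells came from quiescent cells left to activate on plastic over 7 days. Each group had 3 arrays of male cells per the labels, with replicates numbered 1, 8 and 29, then 1, 8 and 30, then 3, 11 and 14. Injury in the animal and culture on plastic coincided with WT1 status, so these cannot be told apart in any comparison with WT1-negative cells.

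Between 17253 and 19774 probes were detected per array. The sorted cells were checked against marker genes. Of 12 stellate cell markers, 8 to 11 were detected per WT1-high array, 9 per WT1-intermediate array and 8 per WT1-negative array. Lrat, Lhx2, Hand2 and Colec11 were detected on none of the WT1-negative arrays, Lhx2 on none of the WT1-high arrays, and Lrat, Ngfr and Lhx2 on none of the WT1-intermediate arrays. The summed level (intensity units, background corrected) of 9 mesothelial markers was 33950 to 37740 in WT1-high, 19540 to 26810 in WT1-intermediate and 358.5 to 451.7 in WT1-negative arrays, where Lrrn4, Gpm6a, Krt19 and Dmkn were detected on none. That of 13 macrophage markers was 4027 to 6859, 13860 to 21310 and 42340 to 48550. Itgam was detected on none of the WT1-high arrays and Clec4f on none of the WT1-negative arrays. The other macrophage markers were detected on some array of every group. In RNA from sorted bulk cells, fewer cells of a type and less RNA per cell cannot be told apart.

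Several members were read by more than 1 probe, and the probes differed in what they detected. The array oligonucleotides of Serpine2, Plat and Tfpi are shown because 1 probe of each gene carried the signal and the others were near background. They are written in lower case, and capitals mark the 42 bases that the last 2 Tfpi probes share.

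Serpine2 ILMN_1246808 (tested): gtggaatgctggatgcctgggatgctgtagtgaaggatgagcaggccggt
Serpine2 ILMN_2883164 (not tested): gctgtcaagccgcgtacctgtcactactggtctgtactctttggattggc
Plat ILMN_2775937 (tested): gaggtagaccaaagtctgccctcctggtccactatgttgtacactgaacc
Plat ILMN_1232110 (not tested): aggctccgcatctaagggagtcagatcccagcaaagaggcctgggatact
Plat ILMN_3003008 (not tested): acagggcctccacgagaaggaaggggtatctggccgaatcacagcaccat
Tfpi ILMN_2819650 (tested): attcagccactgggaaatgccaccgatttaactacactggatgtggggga
Tfpi ILMN_2514346 (not tested): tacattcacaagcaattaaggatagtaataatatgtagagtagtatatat
Tfpi ILMN_1248790 (not tested): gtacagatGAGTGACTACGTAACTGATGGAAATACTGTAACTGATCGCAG
Tfpi ILMN_2691522 (not tested): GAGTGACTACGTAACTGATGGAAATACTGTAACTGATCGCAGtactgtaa

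Apart from that pair, no 2 probes of a gene shared a run of more than 6 bases. The second Serpine2 probe was detected on 2 arrays, WT1-intermediate 1 and 8. It was annotated to a RefSeq transcript and carried an Entrez ID. The tested Serpine2 probe carried the gene symbol and a transcript record outside RefSeq, but no Entrez ID. All Serpine2 results rest on the tested probe, so the annotation does not assign them to the RefSeq transcript. Of the other Plat probes, one was detected on 2 arrays and the other on 0, and the other 3 Tfpi probes were detected on 0 arrays. Where in its transcript each probe lies was not analysed here.

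The start sites of Serpine2 and Serpinb2 are shown because the differences of these inhibitors between the in vivo groups were opposite in sign, although that of Serpinb2 passed the test only in some settings. Windows from 250 bases before to 50 bases after the start came from RefSeq (GRCm38.p6), which matched 6 of the 9 genes. Both strands were searched for GCGGGGGCG, a GC-rich site of the kind bound by EGR factors and WT1, for the AP-1 site TGANTCA and for the TATA box TATAAA. These letters were found in 2.91%, 7.81% and 13.6% of all 32851 windows, respectively. Capitals mark the matches, and none of the motifs overlapped another.

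Serpine2, chr1:79858616-79858915, minus strand: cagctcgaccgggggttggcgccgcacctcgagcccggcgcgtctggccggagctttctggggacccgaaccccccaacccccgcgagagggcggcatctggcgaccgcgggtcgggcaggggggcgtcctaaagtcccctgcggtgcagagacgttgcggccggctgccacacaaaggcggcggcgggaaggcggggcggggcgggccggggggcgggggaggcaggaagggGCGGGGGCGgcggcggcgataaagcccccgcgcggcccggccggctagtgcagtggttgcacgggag
Serpinb2, chr1:107511173-107511472, plus strand: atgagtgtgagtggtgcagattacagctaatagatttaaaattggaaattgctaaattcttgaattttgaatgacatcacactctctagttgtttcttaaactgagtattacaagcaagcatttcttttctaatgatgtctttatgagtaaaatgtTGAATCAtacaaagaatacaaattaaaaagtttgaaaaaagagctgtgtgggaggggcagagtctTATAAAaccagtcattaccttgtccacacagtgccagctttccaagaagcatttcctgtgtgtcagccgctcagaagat

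The Serpine2 window held 1 GC-rich match and no other, whereas the Serpinb2 window held 1 AP-1 match and 1 TATA box. A second, overlapping Serpinb2 window held the same matches. AP-1 matches were not particular to Serpinb2, as 4 of the 6 genes held them: 2 in F3 and 1 each in Plaur, Procr and Serpinb2. Plaur also held 1 GC-rich match. The F3 window and 1 of the Tfpi windows held TATAAA on the opposite strand only, read as TTTATA, and that of F3 lay after the start. These 2 matches are therefore not read as TATA boxes. A match describes letters in a window and no binding was measured.

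Within the injured liver, Serpine2 was the single member that passed the test between the WT1-high and WT1-intermediate groups. Its tested probe, which carried no Entrez ID, gave the lower level in WT1-high cells. Of the 8 genes tested, 1 was called lower and 0 higher, against a background of 3.55% of all probes called (730 of 20573), 2.64% lower and 0.904% higher. The groups did not overlap for 3 of the 8, Serpine2, Plau and Thbd, compared with 20.1% of all probes. The median difference of the 8 genes was -0.15 on the log2 scale, and that of all tested probes was 0.05.

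Serpine2 encodes protease nexin, a serpin that inhibits thrombin and both plasminogen activators. Its log2 level was 6.20, 6.00 and 6.93 on the WT1-high arrays, 8.42, 8.03 and 9.15 on the WT1-intermediate arrays, and 7.72, 7.99 and 7.94 on the WT1-negative arrays. All WT1-high arrays lay below all others, and the WT1-intermediate arrays lay above the WT1-negative ones. The difference between WT1-high and WT1-intermediate was -2.16 ± 0.29 on the log2 scale (SE), a 4.47-fold lower level (limma, Benjamini-Hochberg adjusted p = 0.00288). In the same comparison 9 of the 13 macrophage markers were called lower and 0 higher, and their part in the result was not tested. Against WT1-negative cells, the WT1-high level was lower by 2.84-fold (limma, adjusted p = 0.000998). For WT1-intermediate minus WT1-negative the log2 difference was 0.65, with a 95% interval from 0.01 to 1.29, and did not pass (limma, adjusted p = 0.0759). That last difference passed without WT1-intermediate 8 (limma, adjusted p = 0.0249), without WT1-high 29 (0.0433) and with array weights (0.0466). It was -0.08 when arrays were scaled to the median of all probes.

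Plau encodes urokinase. On the log2 scale it measured 6.48, 6.01 and 6.53 on the WT1-high arrays, 8.62, 7.18 and 7.90 on the WT1-intermediate arrays, and 9.95, 8.21 and 9.48 on the WT1-negative arrays. The WT1-high arrays were the lowest without overlap, and WT1-intermediate 1 lay above WT1-negative 11. Plau fell by 2.87 on the log2 scale from WT1-negative to WT1-high cells, which was 7.32-fold (SE 0.43, limma, adjusted p = 0.000156). Between WT1-negative and WT1-intermediate cells it was 2.48-fold lower in the latter (limma, adjusted p = 0.0215). That call was lost without WT1-intermediate 8 (limma, adjusted p = 0.0909), WT1-negative 3 (0.0881) or WT1-negative 14 (0.0661), and with no filter on dim probes (0.0964). It was also lost in the test against a 1.5-fold change (limma, adjusted p = 0.192). Within the liver the log2 difference was -1.56, with a 95% interval from -2.50 to -0.62, and did not pass (limma, adjusted p = 0.0749).

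The replicate numbers paired the in vivo arrays, and Plau was lower in the WT1-high array of all 3 pairs, with log2 differences of -2.15 in pair 1, -1.17 in pair 8 and -1.37 in the pair of 29 and 30. With the pair as a block it passed the test as a random block (limma, adjusted p = 0.0174) and as a fixed block with 29 and 30 joined (0.00164). A fixed block by the label numbers also passed (limma, adjusted p = 1.5e-06), but it left 29 and 30 unpaired. That p-value therefore rested on pairs 1 and 8 alone. Without a block it also passed when WT1-intermediate 8 (limma, adjusted p = 0.0444) or WT1-negative 11 (0.0266) was left out. The macrophage markers given beside Serpine2 moved with Plau too, and their part was not tested.

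Serpinb2 encodes the second plasminogen activator inhibitor, which is largely kept inside cells. Arrays gave log2 levels of 7.17, 7.99 and 9.41 on the WT1-high arrays, 6.28, 6.18 and 7.92 on the WT1-intermediate arrays, and 4.54, 4.43 and 4.21 on the WT1-negative arrays. It was detected on none of the WT1-negative arrays, while the in vivo groups overlapped and the arrays 29 and 30 were the highest of each. Relative to WT1-negative cells, set at their detection limit, the WT1-high level was at least 12-fold higher and the WT1-intermediate level at least 4.55-fold higher. These bounds depended on the processing: with no background correction they were 3.81-fold and 1.94-fold, with an offset of 50 they were 5.69-fold and 2.55-fold, and without WT1-high 29 the first was 7.90-fold. The tests were of the log2 differences from the undetected level, 3.80 and 2.40 (limma, adjusted p = 0.000101 and 0.00261). The second call was lost with no background correction (limma, adjusted p = 0.0704). Serpinb2 passed the detection filter through the in vivo arrays alone, so these calls were not independent of the filter. Within the liver the log2 difference was 1.40, with a 95% interval from 0.22 to 2.57, and did not pass (limma, adjusted p = 0.201). The WT1-high array was higher in all 3 pairs, by 0.89, 1.81 and 1.49. With a random block by pair the difference did not pass (limma, adjusted p = 0.0511). With a fixed block that joined 29 and 30 it did (limma, adjusted p = 0.00242), as it did without WT1-intermediate 30 and no block (0.0496). It also passed with a fixed block by the label numbers (limma, adjusted p = 4.95e-05), which left arrays 29 and 30 without a partner.

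**Figure D1:**
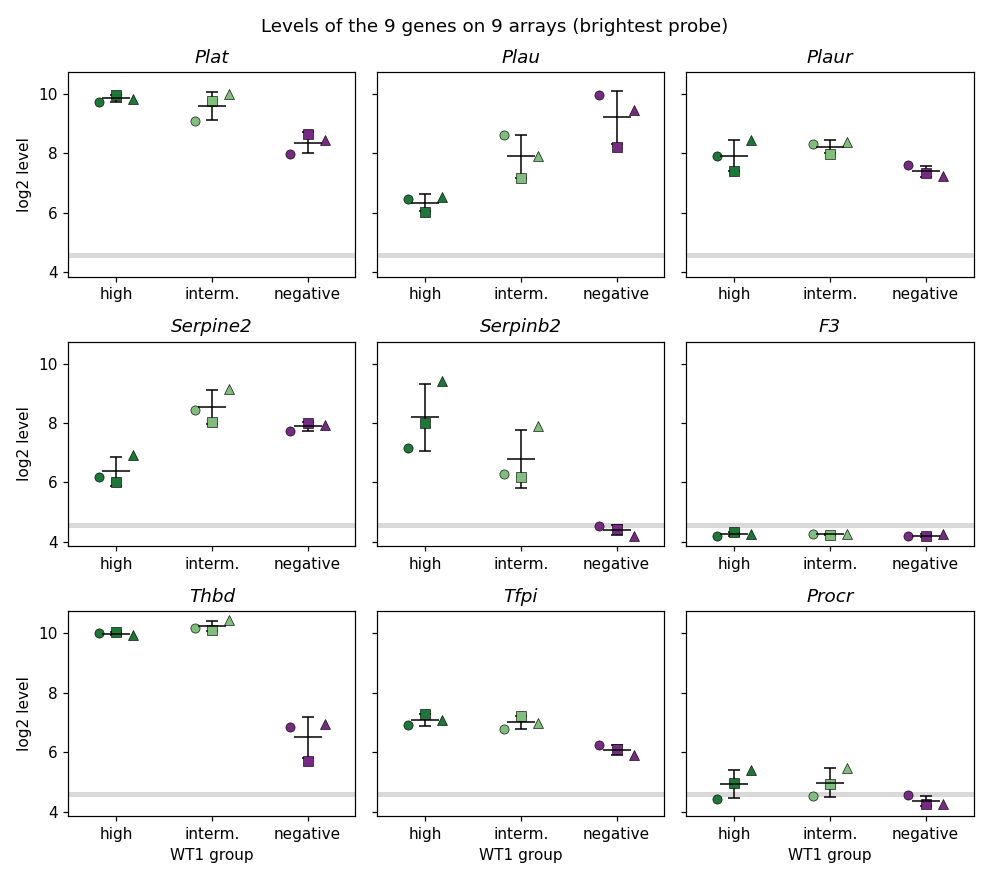
Log2 level of each of the 9 genes (vertical axis) by WT1 group (horizontal axis). Symbols are single arrays, bars are the mean ± SD of 3 arrays, and the grey band spans the detection limits of the 9 arrays. Thbd and Serpinb2 separate the in vivo from the cultured cells, as do Plat and Tfpi by a smaller margin. Serpine2, Plau and Thbd do not overlap between WT1-high and WT1-intermediate cells, and F3 lies below the band throughout.

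The plot of levels by group sets the 9 genes on a common axis, but levels of different probes cannot be compared with each other, so the panels are read within a gene.

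**Figure D2:**
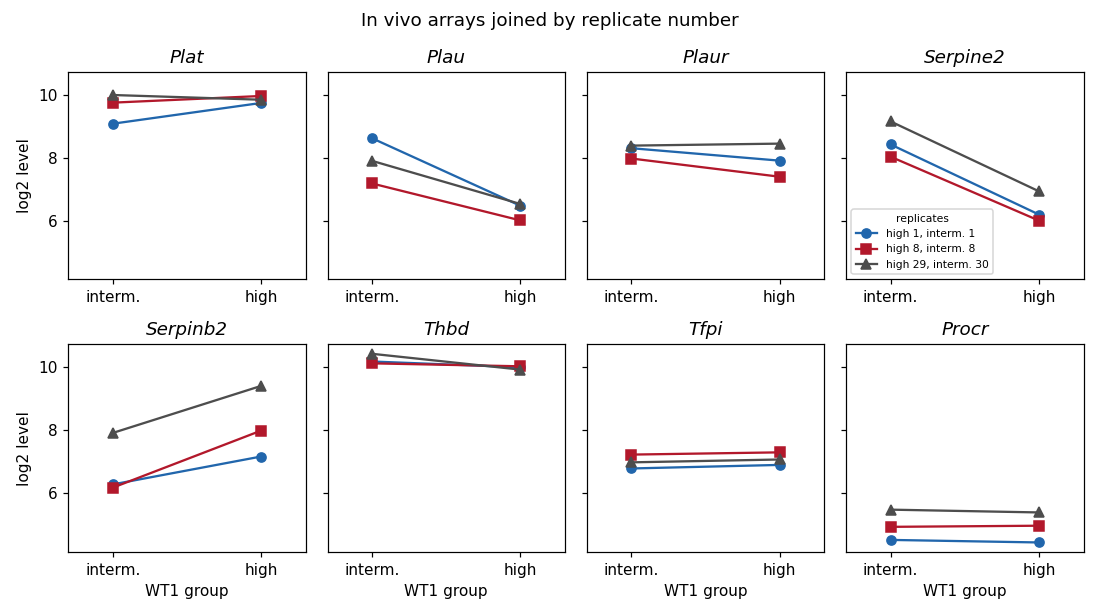
Log2 level (vertical axis) of the 8 tested genes on the 6 in vivo arrays by WT1 group (horizontal axis), with lines joining arrays paired by replicate number. From WT1-intermediate to WT1-high the lines of Serpine2 and Plau slope down and those of Serpinb2 slope up in all 3 pairs, and Thbd is lower and Tfpi higher in all 3 by smaller amounts.

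The lines of Serpine2 ran almost in parallel, with differences of -2.23, -2.03 and -2.22, whereas those of Plat (0.66, 0.21 and -0.15) and Plaur (-0.40, -0.58 and 0.06) changed direction between pairs.

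Against WT1-negative cells, most members differed in both in vivo groups. Of 8 genes tested, 4 were called higher and 2 lower in WT1-high cells, and 5 higher and 1 lower in WT1-intermediate cells. The higher calls include Serpinb2 in both, which passed the detection filter through the in vivo arrays alone. The background was large, with 59.6% of all probes called for WT1-high (26.5% higher and 33.1% lower) and 58.0% for WT1-intermediate cells (24.4% higher and 33.6% lower). The groups did not overlap for 6 of 8 genes in either comparison, against 68.4% and 65.5% of all probes. Median differences of the members were 0.79 and 0.87 on the log2 scale, while those of all tested probes were -0.10 and -0.13. Both comparisons share the WT1-negative arrays. Of the 8 genes, 7 differed among the 3 groups by limma's F test, all but Procr (adjusted p = 0.111), as did 61.1% of all probes.

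Thbd encodes thrombomodulin, the surface receptor that turns thrombin towards the activation of protein C. Levels on the log2 scale were 10.001, 10.03 and 9.93 on the WT1-high arrays, 10.18, 10.13 and 10.43 on the WT1-intermediate arrays, and 6.85, 5.71 and 6.94 on the WT1-negative arrays. Every in vivo array stood well above every cultured one. The level was 11.2-fold higher in WT1-high (limma, adjusted p = 1.25e-06) and 13.4-fold higher in WT1-intermediate cells (limma, adjusted p = 9.51e-07). Between the in vivo groups the log2 difference was -0.26, with a 95% interval from -0.86 to 0.34 (limma, adjusted p = 0.681). Against WT1-negative cells the mesothelial markers moved with Thbd, as all 9 were called higher in both in vivo groups. In both, 5 of 6 T, NK and B cell markers and 4 of 6 hepatocyte markers were also called higher. The macrophage and endothelial lists held more lower than higher calls. Within the liver all 9 mesothelial markers were higher in WT1-high cells, 1 of them called, whereas Thbd was lower in all 3 pairs. The part of these markers in the result was not tested.

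Plat encodes tissue-type plasminogen activator. Its log2 level was 9.74, 9.96 and 9.84 on the WT1-high arrays, 9.08, 9.75 and 9.99 on the WT1-intermediate arrays, and 7.98, 8.66 and 8.45 on the WT1-negative arrays. The in vivo groups overlapped and both lay above the cultured cells. Plat was 2.80-fold higher in WT1-high (limma, adjusted p = 0.000292) and, for the WT1-intermediate group, 2.37-fold higher relative to WT1-negative cells (limma, adjusted p = 0.00107). The second of these calls was lost when arrays were scaled to the median of all probes (limma, adjusted p = 0.169). The activators differed in opposite directions from WT1-negative cells, Plat higher and Plau lower. Within the liver the log2 difference of Plat was 0.24, with a 95% interval from -0.29 to 0.77 (limma, adjusted p = 0.664), and it was -0.023 without WT1-intermediate 1.

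Tfpi encodes the inhibitor of the complex of tissue factor and factor VIIa. Tfpi measured, on the log2 scale, 6.90, 7.30 and 7.07 on the WT1-high arrays, 6.79, 7.23 and 6.98 on the WT1-intermediate arrays, and 6.24, 6.11 and 5.90 on the WT1-negative arrays. All in vivo arrays lay above all cultured ones. The level was 2.01-fold higher in WT1-high (limma, adjusted p = 0.000418) and 1.89-fold higher in WT1-intermediate cells (limma, adjusted p = 0.000871), and the latter call was lost with arrays scaled to the median of all probes (0.329). Both calls were lost in the test against a 1.5-fold change (limma, adjusted p = 0.0585 and 0.137). Between the in vivo groups the log2 difference was 0.09, with a 95% interval from -0.29 to 0.47 (limma, adjusted p = 0.837). Within the pairs Tfpi was higher in the WT1-high array of all 3, by 0.11, 0.07 and 0.09, whereas the unpaired difference was -0.0145 without WT1-intermediate 1 and -0.013 without WT1-high 8, which leave an array without its partner.

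Plaur encodes the receptor that holds urokinase at the cell surface. Plaur had log2 levels of 7.91, 7.40 and 8.45 on the WT1-high arrays, 8.30, 7.98 and 8.39 on the WT1-intermediate arrays, and 7.62, 7.33 and 7.25 on the WT1-negative arrays. WT1-high 8 lay within the range of the cultured arrays, and the WT1-intermediate arrays lay above them. Relative to WT1-negative cells the WT1-intermediate level was 1.77-fold higher (limma, adjusted p = 0.0126), a call lost when arrays were scaled to the median of all probes (0.693) or of the tested probes (0.0777). It was also lost in the test against a 1.5-fold change (limma, adjusted p = 0.455). For WT1-high minus WT1-negative the log2 difference was 0.52, with a 95% interval from -0.01 to 1.05, and did not pass (limma, adjusted p = 0.0846), although it did without WT1-high 8 (0.0117). That difference also passed under cyclic loess (limma, adjusted p = 0.0495) and with array weights (0.0361). Within the liver the log2 difference was -0.30, from -0.83 to 0.23 (limma, adjusted p = 0.57).

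Procr encodes the endothelial protein C receptor, which presents protein C to thrombomodulin. Its log2 level was 4.44, 4.97 and 5.39 on the WT1-high arrays, 4.52, 4.93 and 5.48 on the WT1-intermediate arrays, and 4.54, 4.27 and 4.26 on the WT1-negative arrays. It was detected on 2 WT1-high arrays, 3 WT1-intermediate arrays and 0 WT1-negative arrays, close to background throughout. No comparison of Procr passed (limma, adjusted p = 0.957 within the liver, 0.0886 and 0.0702 for WT1-high and WT1-intermediate against WT1-negative cells). Within the liver the log2 difference was -0.04, with a 95% interval from -0.64 to 0.55. Against the detection limit of WT1-negative cells, the bound was 1.25-fold for WT1-high cells, detected on 2 of 3 arrays, and 1.29-fold for WT1-intermediate cells, detected on all 3. Without WT1-high 1 both comparisons with WT1-negative cells passed (limma, adjusted p = 0.0245 and 0.0473), and the second also passed without WT1-intermediate 1 (0.0223) or WT1-high 29 (0.047). With all 9 arrays kept, both passed under cyclic loess (limma, adjusted p = 0.022 and 0.0382). The second also passed with scaling to the median of the tested probes (limma, adjusted p = 0.0161) and with array weights (0.0331). The in vivo difference was 0.20 without WT1-high 1 and 0.22 without WT1-intermediate 30.

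F3 encodes tissue factor. Its probe lay between 4.18 and 4.34 on the log2 scale, was detected on 0 of the 9 arrays and was not tested, so its level was not measurable with this probe in any group.

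**Figure D3:**
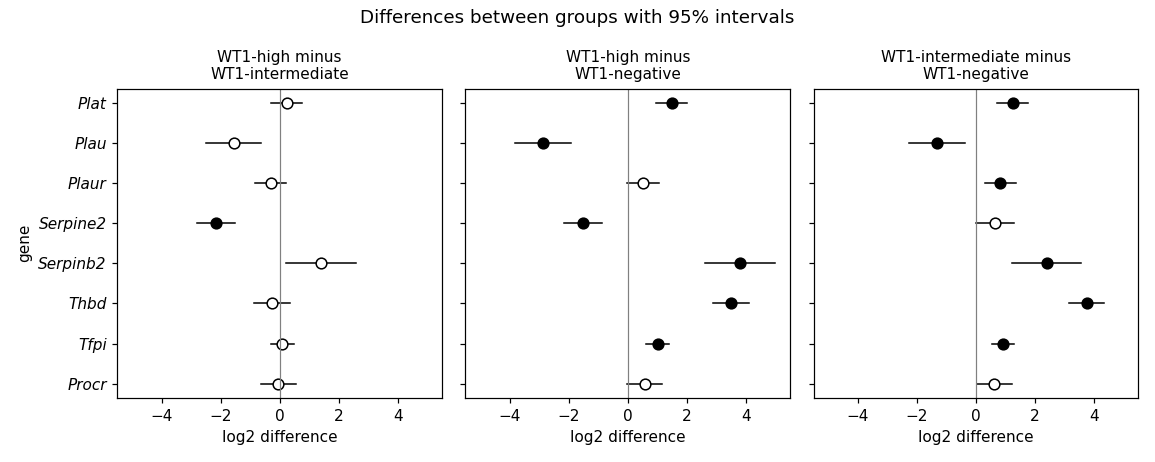
Log2 difference (horizontal axis) of the 8 tested genes (vertical axis) in the 3 comparisons, with lines for 95% intervals. Against WT1-negative cells, Serpinb2 and Procr are differences from an undetected level. Filled circles passed the test (limma, adjusted p under 0.05), 1 within the liver and 6 in each comparison with WT1-negative cells.

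The plot of differences shows the intervals beside each other. Those of Plat, Plaur, Thbd, Tfpi and Procr span 0 within the liver, and a missed threshold does not show that the groups were alike.

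When arrays were scaled to the median of all probes, most of which were not detected, the median difference of all tested probes within the liver went from 0.05 to 0.45 on the log2 scale and lower levels in WT1-high cells went from 74.5% to 4.60% of the calls. That share was 62.3% without background correction and 67.2% with scaling to the median of the tested probes. Under the first of these scalings Plaur, Thbd and Procr changed sign within the liver, to 0.41, 0.42 and 0.20, and Procr was 0.07 under cyclic loess. For WT1-intermediate against WT1-negative cells the share of lower calls moved from 57.9% to 76.9%.

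The other genes of the pathway were a list of 42, of which 30 could be tested. Within the liver 0 were called higher and 2 lower in WT1-high cells, while 7 were higher and 9 lower against WT1-negative cells, and 6 higher and 5 lower for WT1-intermediate cells. These were 6.67%, 53.3% and 36.7% of the 30 genes, beside 3.55%, 59.6% and 58.0% of all probes. Median differences of the 30 genes were 0.02, 0.28 and 0.08 on the log2 scale.

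Of 6 tested genes for plasminogen and its cell surface receptors, 3 were higher and 2 lower in WT1-high than in WT1-negative cells. S100a10, which binds plasminogen together with annexin A2, was 11.6-fold higher in WT1-high and 9.90-fold higher in WT1-intermediate cells (limma, adjusted p = 3.28e-07 and 7.14e-07). Lrp1, the endocytic receptor that clears complexes of proteases with serpins, was 4.12-fold and 5.76-fold higher (limma, adjusted p = 7.88e-05 and 1.87e-05). Plgrkt, a plasminogen receptor, fell by 1.04 and by 0.83 on the log2 scale (limma, adjusted p = 0.000208 and 0.00113). Among other inhibitors, 1 of the 2 tested genes was called, Serping1, the C1 inhibitor, at 25.6-fold and 20.7-fold higher (limma, adjusted p = 4.78e-08 and 1e-07).

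Of 12 tested coagulation factors and fibrinogen chains, F7 and F10, both part of the tissue factor pathway, were lower in the WT1-high group relative to WT1-intermediate cells. The F7 difference was -1.98 on the log2 scale (limma, adjusted p = 0.0029), but F7 was detected on 1 of the 3 WT1-high arrays, so its level there was near background, and the difference was -0.78 with no background correction. That of F10, detected on all 9 arrays, was -1.94 (limma, adjusted p = 0.0173). The F10 call was lost without WT1-high 8 (limma, adjusted p = 0.0576) or WT1-high 29 (0.061), with no background correction (0.0614), scaling to the median of all probes (0.091), no filter (0.106), the compared groups alone (0.0635) and the test against a 1.5-fold change (0.218). F5 was also called lower in WT1-high than WT1-negative arrays, with a log2 difference of -0.43 (limma, adjusted p = 0.0426), and is not plotted. It was detected on 2 of the 3 WT1-high arrays, near background. F13a1, the fibrin cross-linking subunit of factor XIII, which macrophages also make, had log2 differences of -5.17 (WT1-high) and -3.72 (WT1-intermediate) against WT1-negative cells (limma, adjusted p = 5.85e-06 and 8.37e-05). Beside these, the summed macrophage markers given above were lowest in WT1-high and highest in WT1-negative arrays. Of the 13 markers, 9 were called lower and 1 higher in WT1-high than in WT1-negative cells. For WT1-intermediate cells 5 were called lower and 3 higher, so the single markers were mixed there. The part of the macrophage markers was not tested. Vwf, the platelet-binding factor of endothelial cells, had log2 differences of -2.00 and -1.92 (limma, adjusted p = 1.31e-05 and 2.19e-05). It was detected on 2 of 3 arrays of each in vivo group. The 10 endothelial markers summed to 1091 to 1448, 1776 to 2209 and 921.9 to 1262. Against WT1-negative cells, 3 of them were called higher and 4 lower in WT1-high, and 3 higher and 5 lower in WT1-intermediate cells. Kdr was detected on none of the in vivo arrays, and the part of these markers was not tested.

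F8, the cofactor in activation of factor X, was 1.90-fold and 2.34-fold higher (limma, adjusted p = 0.00084 and 0.000132) in the WT1-high and WT1-intermediate groups relative to WT1-negative cells. It was detected on 2 of the 3 WT1-negative arrays, so its level there was near background. With no background correction its log2 differences were 0.31 and 0.43. The WT1-high call was lost in the test against a 1.5-fold change (limma, adjusted p = 0.123). Of 6 other anticoagulants, Proc was called higher and Pros1, the cofactor of activated protein C, lower in WT1-high cells. Proc was detected on none of the WT1-negative arrays, so its level there was not above background. Of 4 protease-activated receptors, F2r, a thrombin receptor, and F2rl3 were called lower in WT1-high cells, and 0 were called for WT1-intermediate cells. F2rl3 was detected on none of the WT1-high arrays, so its level there was not above background. The difference between the WT1-high and WT1-intermediate effects is the in vivo comparison, in which neither receptor was called. Fgg, a fibrinogen chain, was 3.80-fold higher in WT1-high cells (limma, adjusted p = 0.0168). The 9 hepatocyte markers summed to 559.7 to 2303 in WT1-high and 306.1 to 451.7 in WT1-negative arrays. Of the 6 that were tested, 4 were called higher and 0 lower in WT1-high cells. From 6 to 7 of the 9 were detected per WT1-high array and 3 to 4 per WT1-negative array, with Alb detected on 0 arrays. The part of the hepatocyte markers was not tested. Fgg and Proc lost their WT1-high calls without WT1-high 8 (limma, adjusted p = 0.0751 and 0.0996), WT1-high 29 (0.063 and 0.112) or WT1-negative 11 (0.0584 and 0.0933), Proc also without WT1-negative 14 (0.0851), and F2r without WT1-high 1 (0.0615) or WT1-high 8 (0.0539). Of the WT1-intermediate calls, those of Anxa2, F10, F7 and Pros1 were lost without WT1-negative 11 (limma, adjusted p = 0.156, 0.0598, 0.0568 and 0.0512). Those of Anxa2, F10 and Pros1 were lost without WT1-intermediate 1 (0.057, 0.108 and 0.0544). Those of Anxa2, F10 and F7 were lost without WT1-intermediate 8 (0.0856, 0.0599 and 0.133) or WT1-negative 14 (0.0613, 0.0798 and 0.145), and those of Anxa2 and F7 without WT1-intermediate 30 (0.0759 and 0.135).

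**Figure D4:**
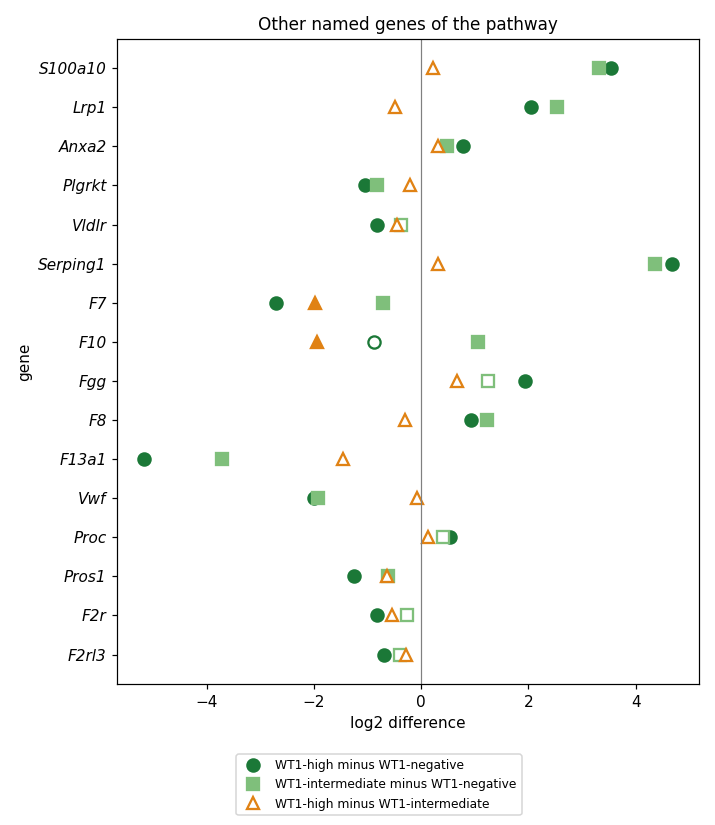
Log2 difference (horizontal axis) in the 3 comparisons for 16 other genes of the pathway (vertical axis), the called ones up to 3 per direction, list and comparison. Filled symbols passed the test, and only F7 and F10 have a filled triangle, which marks the in vivo comparison. Proc was undetected in WT1-negative cells and F2rl3 in WT1-high cells, so differences involving those levels are from an undetected level.

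The plot of the other pathway genes shows Serping1 and S100a10 farthest to the right and F13a1 farthest to the left among these 16 genes.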

How the data were processed

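RNA of 9 sorted cell samples was hybridised to Illumina MouseWG-6 v2.0 arrays, 1 per sample. The deposited values were linear intensities per probe with no correction or normalisation, and the authors deposited a detection p-value (the share of negative controls that were brighter) and a bead count beside them. Member probes rested on 20 to 83 beads, with bead standard errors of 1.60% to 5.62% of the intensity. Per the file headers, 1 array of the WT1-intermediate group carries the number 29, where the labels give 30. Both other arrays of that group had columns of their own, and the intensities equalled those a second deposited table gives for that sample. Its other 3 columns (detection p-value, bead count and bead error) were not used here. Its detection p was computed from its negative controls instead, a computation that differed from the deposited detection calls for 0 probes on the 8 other arrays. Bead values cover those 8 arrays. Per the labels, limma was among the tools of the authors.

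Intensities were processed with neqc in limma 3.58.1 (R 4.3.3; 936 negative controls, offset 16, quantile normalisation, log2). The test covered the 20573 probes detected (p under 0.05) on 3 or more arrays. A linear model with 3 groups was fitted to 9 arrays (6 residual and 5.19 prior degrees of freedom), and two-sided moderated tests were adjusted by Benjamini-Hochberg over all tested probes. An adjusted p under 0.05 is a call. Where a gene was detected on no array of a group, its fold is a bound, set from the mean over that group of each array's lowest detected signal. The steps were tested on simulated data.

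The study states 3 animals for the 6 in vivo arrays. Deviations from group means correlated at 0.34 to 0.47 in the 3 pairs (1, 8, and 29 with 30) and at -0.39 to 0.03 in the 6 other combinations, so the numbers were taken as pairs. Per the study's methods, group sizes count animals in vivo and separate cell preparations in vitro.

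All 9 members were named; other pathway genes were named where called, up to 3 per direction, list and comparison. The members and lists were chosen with earlier results of these data known. All 9 members and 41 of the 42 pathway genes were matched by symbol and 1 by Entrez ID. Of 83 marker genes, 3 were not on the array. Other lists gave summed levels, over the 3 groups in the order WT1-high, WT1-intermediate and WT1-negative, of 177.9 to 190.4, 146.6 to 187.4 and 195.9 to 229.7 (megakaryocyte and platelet), 1085 to 2286, 1795 to 2855 and 376.7 to 684.9 (neutrophil), 559.7 to 2303, 766.8 to 1754 and 306.1 to 451.7 (hepatocyte), 510.8 to 758.9, 487.5 to 880.7 and 150.4 to 156.8 (T, NK and B cell), 12540 to 12740, 13150 to 17130 and 3045 to 4284 (hepatic stellate cell), and 7974 to 13470, 4646 to 9951 and 11890 to 13430 (myofibroblast). Alternatives covered background correction, offset, scaling, filter, fit, replicate block and leaving out each array.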

Additional observations from a re-analysis of the deposited data

How the results depend on the processing

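Serpine2, lower in WT1-high relative to WT1-intermediate cells, kept its direction and its call in all 24 alternatives, with log2 differences from -2.43 to -1.46. For the 24 member differences, 7 kept direction and call throughout, 6 had a reversal, 6 lost a call and 6 gained one. With the in vivo pair as a block, 1796 (random), 1847 (fixed by label numbers) and 1520 (29 joined with 30) probes were called within the liver, and 2, 3 and 3 members. The block by label numbers left arrays 29 and 30 without a partner. The random block also brought Procr past the threshold for WT1-intermediate against WT1-negative cells (limma, adjusted p = 0.0482), and it changed no other member's call beyond those given in the report.

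Within the liver 2631 probes and 2 members were called with scaling to the median of all probes, 335 probes with no filter, 339 with the compared groups alone and 90 against a 1.5-fold change. Leaving out 1 array gave 324 (WT1-intermediate 1) to 866 probes, with 333 without WT1-high 8 and 371 without WT1-high 29, and 1 to 2 members. Against WT1-negative cells, detection on all 9 arrays gave 7970 (WT1-high) and 7716 (WT1-intermediate) probes, and the 1.5-fold test gave 5387 and 4919. Leaving out 1 array gave 10171 to 12414 and 9799 to 12048 probes, and 6 to 7 and 5 to 8 members. For WT1-intermediate cells 3 members were called with scaling to the median of all probes and 3 by the 1.5-fold test. Scaling to the median of all probes reversed Plaur (0.41), Thbd (0.42) and Procr (0.20) within the liver and Serpine2 (-0.076) for WT1-intermediate against WT1-negative cells, and cyclic loess reversed Procr (0.074). Leaving out 1 array moved the differences within the liver from -0.023 to 0.43 for Plat, from -0.0145 to 0.21 for Tfpi and from -0.28 to 0.22 for Procr. With no background correction several called differences were smaller, at -1.48 for Serpine2 within the liver, and against WT1-negative cells at -2.10 for Plau (WT1-high) and 2.68 and 2.93 for Thbd. The causes were not tested.

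Scaling to the median of the tested probes was chosen after seeing the data. With 3 arrays per group the precision is limited by their number, and Procr, F3 and the second probes lay too near background for a change to be measured.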

Other observations

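Among the protease-activated receptors, F2rl1 was chosen for mention after its values were seen. Its log2 level was 5.88, 6.33 and 6.79 on the WT1-high arrays, 5.37, 5.53 and 5.74 on the WT1-intermediate arrays, and 4.43, 7.71 and 4.43 on the WT1-negative arrays, where replicate 11 alone was detected.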
